A study of Homo sapiens with 4 samples.

Results

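The integrin genes described here were ITGAV, the 5 beta subunit genes ITGB1, ITGB3, ITGB5, ITGB6 and ITGB8, whose proteins pair with its product, and ITGA2, ITGA5, ITGA6 and ITGB4. These 10 genes were taken from GENCODE release 44 by name, and all 10 were found among its 19970 protein-coding genes. Accessible sites were assigned to them where a site lay within 100 kb of any annotated transcription start of a member, which gave 461 of the 307691 sites of the series. Open chromatin was measured by ATAC-seq, which uses the Tn5 transposase to insert adaptors where DNA is exposed, in SKBR3, a long-established breast cancer line that is HER2-positive. The comparison was between untreated SKBR3 and SKBR3 exposed for 48 h to 10 ng/ml of TWEAK, a cytokine of the TNF family, with 2 libraries each. The labels give 1 culture protocol for all libraries, with 8 h of starvation before treatment and fresh TWEAK after 24 h, and they do not say what the untreated cells received in its place. A single line under a single dose and time was measured, and the methods call the replicates of cell lines biological.

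Integrins are heterodimeric receptors in which an alpha and a beta subunit together bind the extracellular matrix and, through their cytoplasmic tails, the actin cytoskeleton or keratin filaments. The alpha V subunit binds ligands with an RGD motif such as vitronectin and fibronectin, and its pairs with beta 6 and beta 8 release active TGF-beta from its latent complex. Alpha 2, alpha 5 and alpha 6 form collagen, fibronectin and laminin receptors, and alpha 6 with beta 4 anchors epithelial cells at hemidesmosomes. TWEAK acts through its receptor Fn14 on NF-kB and AP-1 transcription factors.

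The sequences of 8 sites are shown because the results turn on them: sites upstream of ITGAV and ITGB6 that ranked higher or had a peak after TWEAK only, an ITGB6 intron site, and ITGB8 sites that differed between treatments. Each is a window of 201 bp centred on the peak with the best rank in the site, on the plus strand of hg38. The ITGAV promoter is shown for contrast, as the part of the RefSeq promoter record (GRCh38.p14, plus strand) before the first GENCODE start of the gene. Capitals mark matches to the AP-1 consensus TGACTCA on either strand and to the NF-kB consensus, and a match is a description of the letters only. The printed sites are no sample of their kind. Other upstream sites that ranked higher or had a peak after TWEAK only held neither motif, namely ITGAV -21201 bp and ITGB6 -762, -7189, -14469 and -37948 bp among others. Distances are from the start of the gene to the centre of the site along the strand of the gene, with upstream negative.
ITGAV -45433 bp (chr2:186544447-186544647): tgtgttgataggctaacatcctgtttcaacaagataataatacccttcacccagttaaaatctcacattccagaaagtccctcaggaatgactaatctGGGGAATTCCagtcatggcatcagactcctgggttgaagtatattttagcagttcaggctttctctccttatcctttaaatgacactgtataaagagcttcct
ITGAV -34578 bp (chr2:186555485-186555685): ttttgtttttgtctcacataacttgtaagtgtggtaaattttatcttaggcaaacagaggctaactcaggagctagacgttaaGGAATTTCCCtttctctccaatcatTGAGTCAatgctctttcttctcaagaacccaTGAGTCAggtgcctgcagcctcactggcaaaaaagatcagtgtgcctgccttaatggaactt
ITGAV -14531 bp (chr2:186575394-186575594): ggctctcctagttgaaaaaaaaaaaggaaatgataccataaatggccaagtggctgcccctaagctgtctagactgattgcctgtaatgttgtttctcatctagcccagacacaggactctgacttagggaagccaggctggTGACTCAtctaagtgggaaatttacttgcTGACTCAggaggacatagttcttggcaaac
ITGB6 -9408 bp (chr2:160209637-160209837): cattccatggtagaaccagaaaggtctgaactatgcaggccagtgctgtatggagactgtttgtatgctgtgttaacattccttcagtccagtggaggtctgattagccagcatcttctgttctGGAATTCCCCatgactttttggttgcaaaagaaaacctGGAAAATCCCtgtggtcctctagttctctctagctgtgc
ITGB6 -7962 bp (chr2:160208193-160208393): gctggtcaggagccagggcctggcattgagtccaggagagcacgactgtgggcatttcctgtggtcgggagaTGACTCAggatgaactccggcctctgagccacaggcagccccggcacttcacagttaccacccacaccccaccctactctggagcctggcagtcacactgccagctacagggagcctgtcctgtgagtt
ITGB6 +57617 bp (chr2:160142594-160142794): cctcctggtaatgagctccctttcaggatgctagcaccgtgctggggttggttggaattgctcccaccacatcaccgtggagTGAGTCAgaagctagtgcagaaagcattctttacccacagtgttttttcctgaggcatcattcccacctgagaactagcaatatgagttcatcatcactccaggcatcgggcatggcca
ITGB8 -915 bp (chr7:20329677-20329877): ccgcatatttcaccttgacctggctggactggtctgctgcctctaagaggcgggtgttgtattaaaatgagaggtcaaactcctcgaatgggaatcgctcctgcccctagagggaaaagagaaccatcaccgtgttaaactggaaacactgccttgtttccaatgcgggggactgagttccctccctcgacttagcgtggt
ITGB8 +22444 bp (chr7:20353009-20353209): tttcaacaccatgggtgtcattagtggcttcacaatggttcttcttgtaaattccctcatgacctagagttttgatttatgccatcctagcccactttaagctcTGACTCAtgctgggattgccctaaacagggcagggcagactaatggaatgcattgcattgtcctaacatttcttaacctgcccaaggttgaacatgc
ITGAV promoter (chr2:186589806-186590009): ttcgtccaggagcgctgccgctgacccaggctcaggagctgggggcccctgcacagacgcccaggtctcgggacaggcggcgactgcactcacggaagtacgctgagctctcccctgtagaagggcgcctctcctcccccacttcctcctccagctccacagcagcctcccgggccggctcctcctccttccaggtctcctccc

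Each deposited peak carries a value that matched the -log10 of a Poisson p-value, and 2 measures of peak strength were derived from it. The rank percentile places a peak among all peaks of its own list, with 100 the strongest. The pileup over background divides the recovered read pileup of a peak by the background of its list. The lists held between 195388 and 228734 peaks, with backgrounds between 1.85 and 3.59 reads and a lowest pileup between 2.79 and 3.79 times the background. A site without a peak was thus below the threshold of that list, and was not shown to be closed. Over all sites with a peak in every library, pileup over background was higher in TWEAK libraries by a median of 0.14 on the log2 scale, and changes are given relative to this shift where a log2 value is printed.

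Markers were checked at promoters. Of 8 genes of HER2-positive luminal cells, 7 had a promoter peak in all libraries at rank percentiles of at least 95.8, ERBB2 and GRB7 among them, and CDH1 had none. Of 6 genes of other cells (PTPRC, CD3E, PECAM1, COL1A1, COL3A1 and CD14), 2 had a promoter peak in all libraries, namely COL1A1 and CD14, at rank percentiles of 84.4 to 88.2. CD3E had a peak in no library, PTPRC in 1, and PECAM1 and COL3A1 in 2 each. Whether other cells contributed to any site was not tested.

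Across the 10 genes, few sites were present with TWEAK only or without it only, and ITGB6 held the most of the first kind in the comparison of all 4 libraries. Of the 461 sites, 208 (45.1%) had a peak in all 4 libraries, against 42.8% of all sites. Sites were called gained where a peak was listed for TWEAK replicates 1 and 2 but for no untreated replicate, and lost where the reverse held. There were 25 gained integrin sites (5.42%), where 3.6% of all sites were gained, and 13 lost sites (2.82%), where 3.79% of all sites were lost. ITGB6 alone held 7 of the gained sites, and without it 18 of 402 sites were gained (4.48%) and 13 were lost (3.23%). More sites were gained than lost at 6 genes, more were lost than gained at 2, and the counts were equal at 2. Over the 19708 protein-coding genes with a site, these shares were 31.4%, 39.0% and 29.7%. Most gained sites were weak. Their pileup over background ranged from 3.04 to 54.1 with a median of 6.46, and 5 of the 25 lay above the 50th rank percentile in both TWEAK libraries. Lost sites ranged from 2.79 to 56.8 with a median of 4.47, and 2 of the 13 were above that percentile in both untreated libraries.

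**Figure D1:**
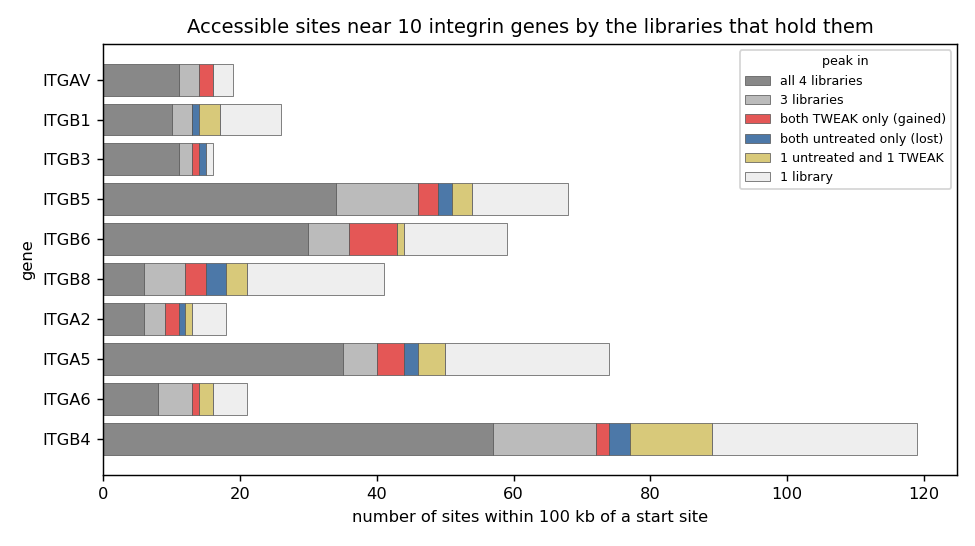
Number of sites within 100 kb of a start site of each gene, divided by the libraries that held a peak. ITGB4 had the most sites (119) and ITGB3 the fewest (16), and the largest gained class was the 7 sites of ITGB6.

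Among the 208 sites with a peak in every library, 32 (15.4%) had both TWEAK ranks above both untreated ranks, where 15.8% of all shared sites did. Another 82 (39.4%) had both TWEAK ranks below both untreated ranks, where 35.4% of all shared sites did. By pileup relative to the median of each list, 43 were higher (20.7%, background 18.5%) and 75 were lower (36.1%, background 36.4%). Of the sites called by rank, 30 of the higher and 66 of the lower were also called by pileup, and none was called in the other direction. As a set, the shared integrin sites thus differed between treatments in shares close to those of all shared sites. Their median change in rank was -1.10, against -1.75 over all shared sites.

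Between libraries, the raw totals of peaks near the 10 genes did not separate the treatments, but totals scaled to the same list length did. The scaled totals were 149.8 and 148.7 untreated and 160.3 and 155.1 with TWEAK, a difference of 8.49 that was not tested. The raw totals overlapped. There were 312 and 340 peaks in the untreated libraries and 350 and 303 in the TWEAK libraries, or 326 ± 19.8 and 326.5 ± 33.2 (SD, n = 2 each), and the groups overlapped (difference 0.5, exact permutation test, two-sided, p = 1). The median rank percentile of the shared sites was 73.2 and 75.8 untreated and 78.7 and 74.9 with TWEAK, a difference of 2.31 (exact permutation test, two-sided, p = 0.667). Over all shared sites these medians were 66.6 and 69.3 untreated and 68.2 and 64.1 with TWEAK, a difference of -1.81. The difference of medians of the integrin sites was thus positive while the median of their single-site changes, -1.10, was negative. With 2 libraries against 2, the smallest p such a test can give is 0.333, so none of these tests could pass a threshold of 0.05. The remaining results are therefore values of the individual libraries. A pair of libraries in each group that do not overlap is no test of the treatment.

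**Figure D2:**
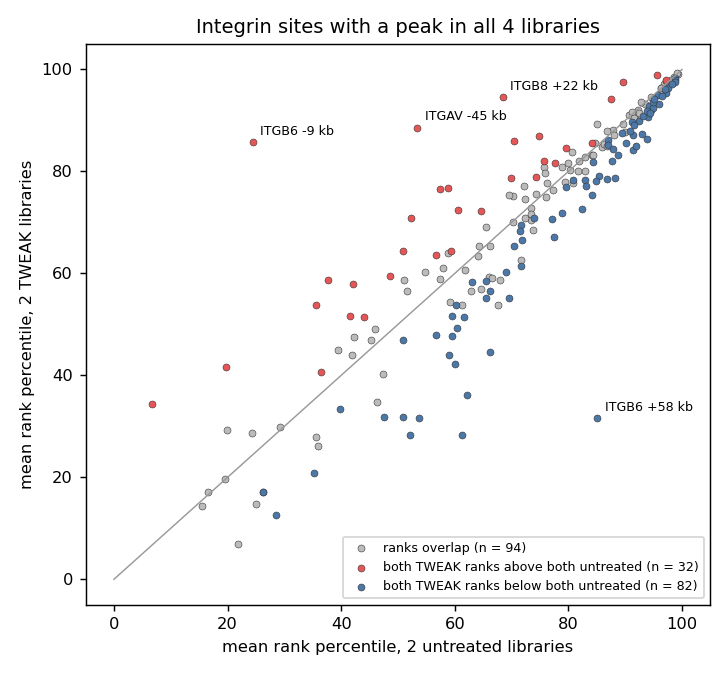
Mean rank percentile of the 208 integrin sites with a peak in all libraries, untreated on the x axis and TWEAK on the y axis, with the line of equality. Red points are the 32 sites with both TWEAK ranks above both untreated ranks and blue points the 82 with both below, and the points named on the plot include the largest rise and the largest fall, both at ITGB6.

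At ITGAV, which encodes the alpha V subunit (ENSG00000138448.13, chr2:186590010-186680901, plus strand), the promoter differed little and the upstream region differed most. The promoter site, chr2:186589743-186590263, had a pileup over background of 71.6 and 91.7 untreated and 93.1 and 90.4 with TWEAK. Its rank percentile was 96.4 and 97.3 untreated and 97.6 and 96.6 with TWEAK, a difference of 0.222 that was smaller than the SD of either group, 0.654 and 0.719 (n = 2 each, exact permutation test, two-sided, p = 0.667). The groups overlapped on both scales. The bases printed for this promoter are 69.1% G or C and hold neither motif.

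The 19 sites of ITGAV included 11 with a peak in all libraries, 2 gained and none lost. Gained or lost counts moved with single libraries at each of the 10 genes. Leaving out a library, which asks for fewer libraries, gave ITGAV 4 gained sites without untreated replicate 2 or TWEAK replicate 2, and 1 lost site without untreated replicate 1 or TWEAK replicate 2. Of the 11 shared sites, 3 were higher in rank in both TWEAK libraries and 1 was lower, where 15.8% and 35.4% of all shared sites were, and their median rank change of 5.02 was the highest among the 10 genes. All 3 that were higher in rank lay in the 50 kb upstream of the start, and so did both gained sites. By pileup relative to the list median, 5 of the 11 were higher and 1 was lower (18.5% and 36.4% of all shared sites). Of these 5, 2 lay downstream, nearest to FAM171B. They had values of 14.2 and 25.9 untreated and 28.9 and 30.3 with TWEAK at +104035 bp, and of 7.81 and 9.84 untreated and 13.7 and 13.0 with TWEAK at +158542 bp, and their ranks overlapped. The strongest difference was at -45433 bp (chr2:186544266-186544887, intergenic), where pileup over background was 7.25 and 9.84 untreated and 44.8 and 45.5 with TWEAK. Its rank percentile was 48.9 and 57.9 untreated and 89.7 and 87.5 with TWEAK, and the log2 change relative to the shift of all shared sites was 2.28. This site holds the NF-kB match printed above. The annotated start nearest to it is that of ZC3H15, 37553 bp away, and not that of ITGAV, 45123 bp away.

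Nearer to ITGAV, a pair of shared sites that were examined after their values were seen differed in the same direction. At -19164 bp (chr2:186570586-186571105) pileup over background was 8.64 and 10.3 untreated and 23.5 and 24.9 with TWEAK. At -14531 bp (chr2:186575213-186575744) it was 13.7 and 16.6 untreated and 39.5 and 37.9 with TWEAK. Both TWEAK libraries were above both untreated libraries at each site, with log2 changes of 1.22 and 1.23 relative to all shared sites, and both windows hold AP-1 matches. Between them, the site at -17114 bp had no peak in untreated replicate 1, a pileup over background of 3.58 in untreated replicate 2, and 12.2 and 15.7 with TWEAK. Not every neighbour differed in this way. The site at -19955 bp had a pileup over background of 6.13 and 5.82 untreated and 6.08 and 7.04 with TWEAK, although its ranks were lower with TWEAK.

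The 2 gained sites of ITGAV were weak. At -34578 bp (chr2:186555029-186555835) the TWEAK pileups over background were 8.36 and 6.50, and the window of the stronger peak holds 2 AP-1 matches and 1 NF-kB match. The peaks of the TWEAK libraries began at 186555335 in replicate 1 and 186555029 in replicate 2 and overlapped in part, and 1 gained site of ITGAV was left when peaks had to overlap by 250 bp to be merged. At -21201 bp (chr2:186568558-186569059) the TWEAK values were 6.46 and 8.12, with the closest untreated peak 733 bp away, and the window holds neither motif. The strongest shared site outside promoters, at +182030 bp and nearest to ZSWIM2, had values of 52.1 and 61.7 untreated and 62.7 and 62.8 with TWEAK. Relative to the list median it was the 1 shared site of ITGAV with both TWEAK libraries below both untreated libraries, and its ranks overlapped.

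**Figure D3:**
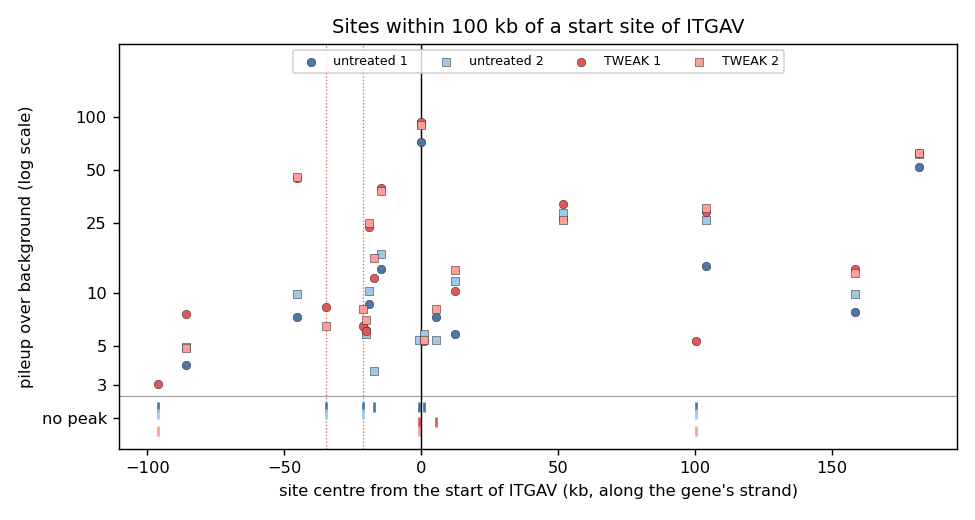
Pileup over background (log scale) of each site within 100 kb of a start site of ITGAV in each library, against the distance of the site from the start of the gene in kb. Ticks under the grey line mark libraries without a peak and dotted lines mark the 2 gained sites, and the TWEAK points stand above the untreated points at -45433, -19164, -17114, -14531, +104035, +158542 and +182030 bp, and not at the promoter, but relative to the list median both TWEAK libraries were lower at +182030 bp.

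The partner subunits differed from each other. ITGB6, which encodes the epithelial beta 6 subunit (ENSG00000115221.12, chr2:160099667-160200313, minus strand), had the most gained sites, 7 of 59, and no lost site. Its gained share of 11.9% was close to those of ITGA2 (11.1%) and ITGAV (10.5%), and ITGAV and ITGA6 also had no lost site. Without TWEAK replicate 1 ITGB6 had 10 gained and 4 lost sites, and without TWEAK replicate 2 it had 16 and 2. Without untreated replicates 1 and 2 it had 2 lost sites and 1. The largest rise and the largest fall in rank of all shared integrin sites were also at this gene. Chosen after these counts were seen, a comparison with all protein-coding genes that had sites showed at least 7 gained sites at 149 of 19708 genes (0.756%), of which 22 had no lost site, and the median gene had 1. ITGB6 had 59 sites where the median gene had 35, and genes were not matched for this number. Of the 30 shared sites of ITGB6, 7 were higher and 11 were lower in rank with TWEAK, where 15.8% and 35.4% of all shared sites were. By pileup relative to the list median 9 were higher and 10 were lower (18.5% and 36.4% of all shared sites).

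Within about 10 kb upstream of ITGB6, 4 sites in a row were stronger or present only with TWEAK. At -9408 bp (chr2:160209455-160209987) pileup over background was 5.02 and 4.03 untreated and 33.8 and 42.8 with TWEAK. Its rank percentile was 33.1 and 15.99 untreated and 85.1 and 86.4 with TWEAK, and the log2 change relative to all shared sites was 2.94. This was the largest rise in rank among the shared integrin sites, and the window holds 2 NF-kB matches. At -8698 bp the gained site chr2:160208719-160209303 was weak, with TWEAK values of 6.84 and 5.96. At -7962 bp (chr2:160208006-160208543), a site examined after its values were seen, pileup over background was 16.7 and 19.7 untreated and 35.3 and 46.6 with TWEAK, and the window holds an AP-1 match. At -7189 bp the gained site chr2:160207241-160207763 had values of 19.4 and 18.4, with its edge 242 bp from an untreated peak, and its window holds neither motif. Nearer to the start, the shared site at -3826 bp went the other way, with ranks of 64.7 and 74.3 untreated and 54.6 and 56.0 with TWEAK and overlapping values of 11.7 and 18.3 untreated and 9.87 and 13.0 with TWEAK. Farther upstream, the gained site at -32710 bp had values of 7.22 and 11.4. Over the 50 kb upstream, a stretch picked after its values were seen, 3 of 23 sites were gained, 5 of the 15 shared sites were higher in rank and 3 were lower, where the shares over all sites were 3.6%, 15.8% and 35.4%.

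Inside ITGB6, the strongest gained site and the largest fall lay side by side in an intron. The gained site at +57617 bp (chr2:160142444-160142947) had a pileup over background of 52.4 and 54.1 with TWEAK, at ranks of 91.9 and 90.3, and its window holds an AP-1 match. It lay 29 bp from the nearest untreated peak, chr2:160141914-160142414 in replicate 1. The untreated peak of replicate 2 was chr2:160141912-160142412, and the values of these peaks were 29.3 and 32.7. The merged site that contained these untreated peaks, chr2:160141336-160142414, held only weaker TWEAK peaks, with values of 4.94 and 8.12, and its rank percentile was 84.9 and 85.3 untreated and 25.5 and 37.7 with TWEAK. In each treatment this stretch of the intron thus had 1 strong peak, at adjoining positions, with the higher pileup over background in the TWEAK libraries. How the step that set all peaks to 501 bp placed them was not tested.

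The promoter site of ITGB6, chr2:160199617-160200318, showed no such rise. Its pileup over background was 17.3 and 24.6 untreated and 17.5 and 16.2 with TWEAK, and its rank was 74.6 and 80.4 untreated and 71.2 and 63.2 with TWEAK. The groups did not overlap in rank, with TWEAK lower, but they overlapped in pileup over background before scaling to the median of each list. A weaker site at -762 bp, examined after its values were seen, had values of 8.64 and 9.84 untreated and 15.2 and 14.6 with TWEAK. The strongest shared site outside promoters, at -5392 bp, was high in every library, with values of 77.8 and 92.6 untreated and 107 and 98.5 with TWEAK. At +97712 bp, an intron site, ranks were 58.4 and 64.0 untreated and 25.5 and 31.2 with TWEAK, the second largest fall. The other gained sites of ITGB6, at +51642, +103772 and +117240 bp, had values between 4.18 and 6.46, and the last was nearest to PLA2R1.

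**Figure D4:**
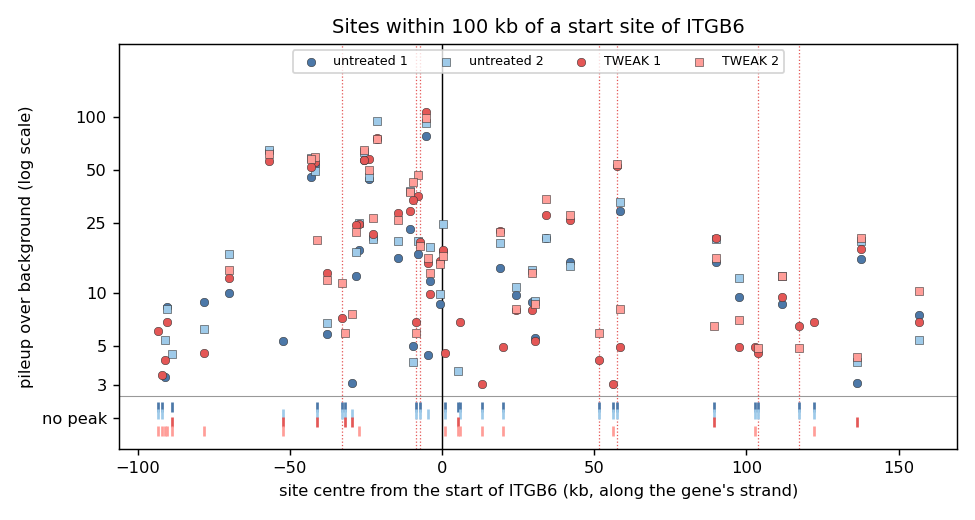
Pileup over background (log scale) of each site within 100 kb of a start site of ITGB6 in each library, against the distance of the site from the start of the gene in kb. Ticks under the grey line mark libraries without a peak and dotted lines mark the 7 gained sites, of which the site at +57617 bp is the strongest at 52.4 and 54.1.

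ITGB8, which encodes the other subunit that activates TGF-beta with alpha V (ENSG00000105855.10, chr7:20330702-20415754, plus strand), differed between treatments at its start. Untreated libraries had a peak over the first start, chr7:20330408-20330926, with a pileup over background of 51.6 and 56.8, and neither TWEAK library had one. This was the strongest lost site of the 10 genes. At -915 bp (chr7:20329513-20330060) all libraries had a peak, with values of 37.4 and 46.5 untreated and 96.1 and 98.0 with TWEAK, and ranks of 88.7 and 90.5 against 97.8 and 97.2. The nearest TWEAK peak to the lost site was 380 bp away. Farther downstream the lists held weak peaks at differing positions, with a value of 6.41 in the first untreated library and values of 5.70 and 7.58 with TWEAK. Whether the start itself was less open cannot be told from peak lists.

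Only 6 of the 41 sites of ITGB8 were shared by all libraries, of which 3 were higher and 1 was lower in rank, where 15.8% and 35.4% of all shared sites were. At +22444 bp (chr7:20352859-20353433, an annotated exon), values were 13.4 and 14.3 untreated and 61.5 and 79.1 with TWEAK, and ranks were 68.4 and 68.5 against 93.8 and 95.3. The log2 change relative to all shared sites was 2.19, and the window holds an AP-1 match. At +35022 bp (chr7:20365458-20365989), within 1 kb of an internal start, values were 64.1 and 75.6 untreated and 116 and 136 with TWEAK, and an NF-kB match is present. TWEAK was above untreated in both libraries at each. Of the 3 gained sites, the site at +128051 bp was the strongest, with values of 13.7 and 18.4, and those at -3322 and +21347 bp lay between 5.41 and 6.84. The other lost sites, at +73063 and +109488 bp, had untreated values between 2.79 and 4.03. Gained sites of ITGB8 numbered 15 without TWEAK replicate 2, 5 without TWEAK replicate 1 and 6 without either untreated library, and lost sites 7 and 6 without untreated replicates 1 and 2.

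ITGB5, the vitronectin-binding partner of alpha V (ENSG00000082781.12, chr3:124761948-124901418, minus strand), ranked lower with TWEAK at most of its shared sites. Of its 34 shared sites, 20 were lower and 3 were higher in rank, where 35.4% and 15.8% of all shared sites were. By pileup relative to the list median 17 were lower and 3 were higher (36.4% and 18.5% of all shared sites). Its promoter site at the MANE Select start, chr3:124887137-124887699, had values of 41.8 and 53.2 untreated and 46.3 and 50.4 with TWEAK. These overlapped, but both TWEAK libraries were lower in rank, 90.2 and 89.2 against 90.3 and 92.2 untreated, and lower in pileup relative to the list median. The strongest promoter site, at +120923 bp and an internal start, had values of 77.5 and 100.2 untreated and 82.0 and 84.5 with TWEAK. The strongest of its 3 gained sites, at +53791 bp (chr3:124847367-124847887), was within 1 kb of another internal start, had values of 11.01 and 16.2 and holds an AP-1 match. The gained sites at -85110 and -98150 bp were in introns of HEG1 and the 2 lost sites, at +116589 and +201588 bp, had untreated values between 4.47 and 7.16. Lost sites numbered 6 to 8 with any library left out, and gained sites 7 without TWEAK replicate 2 and 5 without untreated replicate 2. A rise at +193664 bp in an intron of KALRN, from 3.35 and 3.13 to 4.56 and 10.3, was among the 5 largest in rank but stayed weak. The fall at +152337 bp in UMPS, from 8.64 and 7.60 to 4.94 and 7.04, was among the 5 largest falls. The strongest shared site outside promoters, at +40598 bp, had values of 66.6 and 76.5 untreated and 73.7 and 70.9 with TWEAK.

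ITGB1, the beta subunit shared by most alpha subunits (ENSG00000150093.20, chr10:32887273-33005792, minus strand), had promoters that overlapped between treatments in rank. Its strongest promoter site, chr10:33005547-33006074, had values of 70.5 and 78.7 untreated and 83.2 and 84.5 with TWEAK, and its ranks, 96.3 and 96.2 against 96.8 and 96.0, overlapped. At the MANE Select start the values were 32.9 and 41.6 untreated and 41.0 and 47.1 with TWEAK. None of its 26 sites was gained, and the 1 lost site, at +20203 bp, was near the threshold with values of 3.07 and 3.58. ITGB1 had 4 gained sites without TWEAK replicate 2 and 1 without untreated replicate 2, and 2 to 4 lost sites with any library left out. Of 10 shared sites 2 were higher and 2 were lower in rank (15.8% and 35.4% of all shared sites), and by pileup relative to the list median 3 were higher and none was lower (18.5% and 36.4%). An intron site at +7345 bp, named after its values were seen, had values of 5.58 and 5.82 untreated and 14.4 and 11.4 with TWEAK, a log2 change of 1.03 relative to all shared sites. The strongest shared site outside promoters, at -4818 bp, had values of 20.1 and 29.5 untreated and 34.6 and 34.1 with TWEAK.

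ITGB3, the beta subunit of the alpha V receptor of endothelium and osteoclasts (ENSG00000259207.10, chr17:47253827-47313743, plus strand), had no site within 1 kb of its first start in any library. A site at an internal start, chr17:47290904-47291791, was weak, with values of 3.35 and 4.47 untreated and 3.80 and 5.96 with TWEAK. Its 16 sites included 1 gained, at +21682 bp with values of 4.56 and 4.87 and an AP-1 match, and 1 lost, at +42225 bp with values of 4.18 and 5.37. It had 2 lost sites without untreated replicate 1 or either TWEAK library. The site at +44159 bp, from 3.07 and 5.37 to 7.22 and 8.66, was the last of the 5 largest rises. The strongest shared site outside promoters was at +51894 bp, with values of 22.3 and 18.3 untreated and 15.95 and 22.7 with TWEAK.

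**Figure D5:**
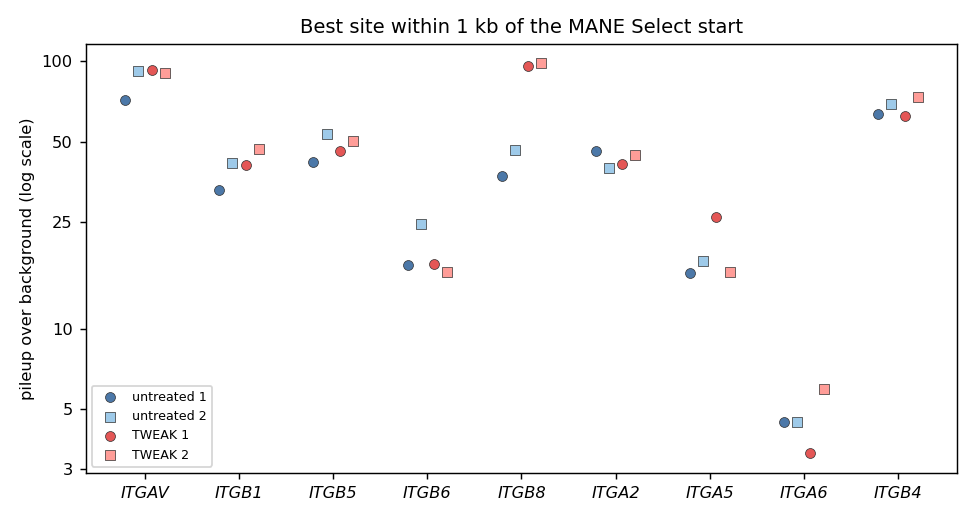
Pileup over background (log scale) in each library at 1 site within 1 kb of the MANE Select start of 9 genes, the site with peaks in the most libraries and then the highest mean rank, with ITGB3 left out because it had no site there. On this unscaled measure the treatments overlap at every plotted gene except ITGB8, where TWEAK values of 96.1 and 98.0 stand above untreated values of 37.4 and 46.5, and the lost site at the ITGB8 start, with untreated values of 51.6 and 56.8, is not plotted. In rank, TWEAK was lower without overlap at ITGB5, ITGB6 and ITGB4, and relative to the list median at these genes and ITGA2.

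At the MANE Select promoters of the collagen, fibronectin and laminin receptor genes ITGA2, ITGA5, ITGA6 and ITGB4, unscaled pileup over background overlapped between the treatments. Relative to the list median, both TWEAK libraries were below both untreated libraries at ITGA2 and ITGB4, and at ITGB4 also in rank. ITGA2, the collagen receptor subunit (ENSG00000164171.11, chr5:52989340-53094779, plus strand), had promoter values of 46.0 and 39.8 untreated and 41.4 and 44.4 with TWEAK. Of its 18 sites, 2 were gained, at -24964 and -628 bp with values between 3.42 and 7.04, and 1 was lost, at +1774 bp with values of 5.02 and 4.92. Without either TWEAK library ITGA2 had 4 gained and 2 lost sites, and without untreated replicate 1 it had 2 lost sites. Its strongest shared site outside promoters, at -66780 bp in an intron of ITGA1, had values of 27.0 and 35.3 untreated and 53.9 and 42.2 with TWEAK, but the ranks of the groups overlapped. Of its 6 shared sites 2 were higher and none was lower in rank (15.8% and 35.4% of all shared sites). The site at -1444 bp, named after its values were seen, had values of 7.81 and 8.50 untreated and 22.03 and 17.3 with TWEAK, a log2 change of 1.12 relative to all shared sites.

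ITGA5, the fibronectin receptor subunit (ENSG00000161638.11, chr12:54395261-54419266, minus strand), lies in a gene-dense region, and only 23 of its 74 sites had its own start as the nearest. The promoter site chr12:54418997-54419538 had values of 16.2 and 17.9 untreated and 26.2 and 16.2 with TWEAK. All 4 gained and both lost sites were nearest to other genes, NFE2, COPZ1, ZNF385A and GTSF1. The strongest of them, a gained site at +118944 bp at the promoter of NFE2, had values of 10.6 and 13.0, and the others lay between 3.90 and 9.20. Gained sites of ITGA5 numbered 10 without TWEAK replicate 2 and 8 without TWEAK replicate 1 or untreated replicate 2, and lost sites 13 and 5 without untreated replicates 1 and 2. The strongest promoter site of ITGA5, at +19785 bp and an internal start, had values of 33.5 and 41.2 untreated and 42.2 and 40.6 with TWEAK, and the strongest site outside promoters, in ZNF385A, had 109 and 115 untreated and 101.4 and 104.5 with TWEAK. Of its 35 shared sites 7 were higher and 15 were lower in rank, where 15.8% and 35.4% of all shared sites were.

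The promoters of the hemidesmosome pair differed from each other in strength. ITGA6, the laminin receptor subunit (ENSG00000091409.16, chr2:172427354-172506459, plus strand), had a weak promoter, with values of 4.46 and 4.47 untreated and 3.42 and 5.96 with TWEAK. ITGB4 (ENSG00000132470.14, chr17:75721328-75757818, plus strand) had a strong one, with values of 63.3 and 68.9 untreated and 62.3 and 73.6 with TWEAK at the MANE Select start. The values of ITGA6 overlapped between treatments, as did its ranks. At ITGB4 the values overlapped, but both TWEAK libraries were lower in rank, 93.96 and 94.5 against 95.3 and 94.98 untreated, and lower in pileup relative to the list median. ITGA6 had 1 gained site, at +28732 bp with values of 4.18 and 3.79, and no lost site among 21. It had 4 lost sites without TWEAK replicate 1, 2 and 1 without untreated replicates 1 and 2, and 2 gained sites without untreated replicate 2 or either TWEAK library. Its strongest shared site outside promoters, at +38468 bp, had values of 34.6 and 44.3 untreated and 37.6 and 30.3 with TWEAK.

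Of the 57 shared sites of ITGB4, 27 were lower and 2 were higher in rank, where 35.4% and 15.8% of all shared sites were. By pileup relative to the list median 30 were lower and 7 were higher (36.4% and 18.5% of all shared sites). Of its 119 sites 2 were gained, both at promoters of other genes, UNC13D and WBP2, and 3 were lost. Without untreated replicates 1 and 2 it had 16 and 14 lost sites and 7 and 2 gained sites, and without TWEAK replicates 1 and 2 it had 7 and 9 lost sites and 8 gained sites. The strongest lost site, at -78837 bp in an intron of RECQL5 (chr17:75642231-75642751), had untreated values of 19.0 and 21.5, and the other lost sites, at +17068 and +96755 bp, lay between 3.13 and 4.03. Its strongest promoter site, at +2137 bp, had 95.6 and 108 untreated and 96.5 and 90.4 with TWEAK. The strongest shared site outside promoters, at -31706 bp in SAP30BP, had 65.2 and 83.7 untreated and 73.3 and 74.7 with TWEAK. Of the 5 largest falls in rank, 2 were near ITGB4, at +125907 bp in WBP2, from 9.20 and 13.4 to 7.60 and 6.50, and at -46196 bp in SAP30BP, from 9.48 and 7.60 to 4.94 and 8.12, where the values of the groups overlapped.

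Motifs were counted in the 201 bp window of every site on both strands. The AP-1 consensus TGACTCA was found in 49 of 461 integrin sites (10.6%), against 9.01% of all sites, and in 6 of 25 gained integrin sites (24%), against 16.6% of all gained sites. The NF-kB consensus was found in 33 integrin sites (7.16%), against 6.21% of all sites, and in 4 gained integrin sites (16%), against 20.1% of all gained sites. Neither was found in the 13 lost integrin sites, where 4.90% and 4.28% of all lost sites held them. These counts are small, and their difference from all gained sites was not tested. Among the 32 sites higher in rank, 6 held AP-1 (18.8%, all such sites 22.1%), 4 held NF-kB (12.5%, all such sites 12.7%) and 10 held the TEAD consensus GGAATG (31.2%, all such sites 20.04%). TEAD was also found in 7 of the 25 gained integrin sites (28%, all gained sites 18.2%) and in 4 of the 13 lost integrin sites (30.8%, all lost sites 15.4%). The TFAP2 consensus GCCNNNGGC was found in 13.0% of integrin sites and 12.1% of all sites, and the GRHL consensus AACNGGTT in 2.39% and 2.58%. RefSeq promoter records were matched for 8 of the 10 genes, with 13 records. Of these 1 held AP-1 and 3 held NF-kB, where 4.92% and 11.3% of 34961 promoters of the same length did.

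Other genes of the adhesion pathway were counted with the same rules. Near the 16 other integrin genes, 37 of 698 sites were gained (5.30%) and 26 were lost (3.72%), and 13 of these sites were also near the 10 genes. ITGAM, a leukocyte subunit, had 9 gained and 1 lost, and ITGA1, the neighbour of ITGA2, had 7 gained and 1 lost, 2 of the gained sites being those of ITGA2. ITGA11 had none gained and 4 lost. At least 2 sites were gained at 11 of these genes (ITGA1, ITGA3, ITGA8, ITGA9, ITGA10, ITGAD, ITGAE, ITGAM, ITGAX, ITGB2 and ITGB7), and at least 2 were lost at 6 (ITGA3, ITGA7, ITGA11, ITGAD, ITGAE and ITGB7). Near 14 ligand genes, 43 of 856 sites were gained (5.02%) and 31 were lost (3.62%), with 5 gained and 1 lost at TNC, the gene of tenascin C. At least 2 were gained at 10 of the ligand genes (FN1, VTN, SPP1, TNC, LAMA3, LAMB3, LAMA5, COL1A1, COL4A1 and LTBP1) and lost at 7 (VTN, LAMA3, LAMB3, LAMA5, COL1A1, COL4A1 and LTBP1). Near 22 genes of adhesion complexes, such as talin, vinculin and kindlin genes, 66 of 1832 sites were gained (3.60%) and 80 were lost (4.37%). Over all sites the shares were 3.6% and 3.79%. SRC, the tyrosine kinase, had 2 gained and 13 lost, TLN2 had 8 gained and 2 lost, and TNS3 had 12 gained and 8 lost. At least 2 were gained at 11 of the adhesion genes (TLN1, TLN2, VCL, ILK, SRC, TNS3, TNS4, CD151, PLEC, COL17A1 and DST) and lost at 12 of them (TLN2, VCL, FERMT2, SRC, TNS1, TNS3, TNS4, CD151, PLEC, DST, BCAR1 and CAV1). Over all protein-coding genes with a site, 33.9% had at least 2 gained and 38.8% at least 2 lost. The listed genes had from 9 to 289 sites each and were not matched for it.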

How the data were processed

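Per the methods of the study, the authors trimmed adaptors (Trimmomatic), aligned reads to hg38 (Bowtie2), discarded mitochondrial (Bamtools) and duplicate reads (Picard), and called peaks in MACS2. Versions and settings, and any shift of reads for the transposase, were not given in the sources used here. A list of 501 bp peaks was deposited for each library, with a value read here as the -log10 of an uncorrected p-value, since 100% of the deposited values matched a Poisson tail for a whole-number pileup against 1 background per list. That pileup was recovered from them and tested on simulated data.

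Peaks on chromosomes 1 to 22 and X sharing at least 1 bp were joined into sites, with Python 3.11.15, pandas 2.3.3 and pysam 0.24.0. Promoter sites lay within 1 kb of a start. DiffBind, which needs reads, was not run. Ranks were computed with scipy 1.17.1, and libraries, grouped by their titles, were compared by exact permutation. Sites were named by rule: the best promoter site of each gene, all gained and lost sites, the strongest shared site outside promoters, and the 5 largest rises and falls in rank. The members and lists were chosen with earlier results of these data known, and 2 genes of these lists are not reported here. Alternatives covered thresholds, distances, start sites, merging, scaling, a replicate block and each library left out. Replicate numbers pair nothing in the labels, and sites are not replicates.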

Additional observations from a re-analysis of the deposited data

How the results depend on the processing

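None of the tested differences between treatments was stable in sign. Peak number scaled to the same list length was not tested, and its difference was 8.49. Both TWEAK libraries lay above both untreated libraries on that scale, so its sign is the same with any library left out. The difference in peak number (0.5) ranged from -23 without TWEAK replicate 1 to 24 without TWEAK replicate 2, with -13.5 without untreated replicate 1. The difference in median rank (2.31) ranged from -0.894 without TWEAK replicate 1 to 3.73 without TWEAK replicate 2, and it was -0.380 with a value of at least 5. The difference at the ITGAV promoter (0.222) ranged from -0.287 without TWEAK replicate 1 to 0.730 without TWEAK replicate 2, with -0.241 without untreated replicate 1, and it was -0.0701 as log2 pileup over the median of all shared sites, an alternative chosen after seeing the data. The cause was not tested. With a replicate block the differences were the same, 0.5, 2.31 and 0.222, with opposite signs in the 2 pairs of libraries (38 and -37 peaks, 5.53 and -0.902, 1.19 and -0.750), and the exact sign-flip p was 1 for each.

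The 25 gained sites became 16 with a value of at least 5, and 17 to 26 under the other alternatives that kept all libraries. Leaving out a library, which asks for fewer libraries, gave 35 to 71, namely 35 and 38 without untreated replicates 1 and 2, and 43 and 71 without TWEAK replicates 1 and 2. The 13 lost sites became 6 with a value of at least 5, 7 within 50 kb, 8 from the start of the gene record, 7 without close neighbours and 5 where pileup had to reach 5 times background, and leaving out a library gave 29 to 55. Over all sites, 4.82% were gained and 3.36% lost with a value of at least 5, and 5.90% and 2.33% at 5 times background, so that gains outnumbered losses there too. The leave-one-out settings, in the order untreated 1 and 2 and TWEAK 1 and 2 left out, gave 6.54%, 7.63%, 9.09% and 11.6% gained and 15.9%, 11.5%, 9.29% and 6.56% lost. More integrin sites were lost than gained without untreated replicate 1 (55 against 35) and without untreated replicate 2 (40 against 38). At ITGB6, gained sites ranged from 4 to 16 and lost sites from 0 to 4, and ITGB6 no longer had the most gained sites without untreated replicate 2 (7, with 8 at ITGA5). The 32 integrin sites higher in rank became 40 to 67 and the 82 lower became 93 to 120 with a library left out, both chosen after seeing the data. The shares of all shared sites under these settings are not given here, so these counts cannot be set against a background. The direction of the 10 largest rises and falls is fixed by how they were chosen, but their size moved: from 8.19 without untreated replicate 1 to 35.5 without untreated replicate 2 at ITGB3 +44159 bp, and from 14.6 without TWEAK replicate 2 to 40.7 without TWEAK replicate 1 at ITGB5 +193664 bp. Lists of unequal depth and threshold limit all calls of presence.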

Other observations

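The genes whose sites were distributed most like those of ITGAV over the 15 possible patterns of presence in the 4 libraries were MOSPD1, SYN3 and BPIFC, with Euclidean distances between the shares of sites of 0.0554, 0.0750 and 0.0776, among 17826 genes compared. MOSPD1 had 16 sites, of which 9 were shared by all libraries, 2 were gained and none was lost. This likeness rests on presence in 4 libraries only.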
